A study of Mus musculus with 55 samples.

Results

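The epidermal growth factor (EGF) family, here 10 genes, was followed through sorted mouse liver cells: the ligands Areg, Ereg, Btc, Hbegf, Tgfa and Egf and the receptors Egfr, Erbb2, Erbb3 and Erbb4. They were taken by gene symbol from a table of 36141 transcript rows and 24478 symbols, with the row of highest mean kept for a symbol that had several, and all 10 were found. The study sorted 10 cell populations by flow cytometry from livers of C57B/L6 mice, as the labels spell the strain, either untouched (normal, 27 libraries) or after partial hepatectomy (PH, surgical removal of part of the liver, 28 libraries). The populations are named in the labels as clonal biliary epithelial cells (cBEC; 4 normal and 2 PH libraries), biliary epithelial cells (BEC; 4 and 2), non-progenitor ducts (NPD; 2 and 2), hepatocytes (HC; 4 and 4), endothelial cells (EC; 2 and 3), liver sinusoidal endothelial cells (LSEC; 3 and 5), blood cells (2 and 2), Thy1 cells (2 and 2), Kupffer cells, the resident macrophages of the liver (KC; 2 and 3), and hepatic stellate cells (HSC; 2 and 3). No genetic change, age, sex or time after surgery is given for any group. The labels do not say whether libraries of a group came from separate mice, so p-values measure only the spread between these libraries, which may be technical.

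EGF-family ligands are made as membrane-bound precursors that proteases of the ADAM family release. The receptors work in pairs: Egfr and Erbb4 bind ligand and carry an active kinase, Erbb2 binds no ligand of its own, and Erbb3, which has little kinase activity, signals through a partner. Areg, Egf and Tgfa bind Egfr, whereas Btc, Ereg and Hbegf also bind Erbb4, and in the liver the pathway is known for driving hepatocyte division after tissue loss.

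Levels are given as FPKM, fragments scaled to transcript length and to the size of the library, which can be set side by side between genes because they are per length. Differences are given on the log2(FPKM + 1) scale, where a pseudocount of 1 understates the change of low genes. The number of sequenced fragments per library is unknown. FPKM summed over all symbols came to 633664 to 762627 in the hepatocyte libraries and to 393620 to 554654 in all others. Hepatocyte values are listed in steps of 0.01 FPKM and the others with more digits. Contrasts of hepatocytes with other sorts carry this difference in scale. Between 10630 and 18914 symbols were above 0 in a library, and the lowest number belonged to a PH HSC library. A value of exactly 0 can be a failed estimate: among genes with at least 10 FPKM in at least 5 other populations, the share of values listed at 0 in the normal non-hepatocyte libraries was 0.425% for genes under 1 FPKM in hepatocytes, 0.163% at 1 to 10 FPKM, 1.77% at 100 to 300 FPKM and 6.83% at 300 FPKM or more. In the PH libraries it was 1.31% under 1 FPKM, 0.28% at 1 to 10 FPKM, 1.4% at 100 to 300 FPKM and 4.2% at 300 FPKM or more. Egfr had a mean of 207 FPKM in normal hepatocytes.

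Most populations carried the markers of their labels, but several were mixed. PH blood libraries held 13230 to 22740 FPKM of 8 Kupffer genes in sum against 30.1 to 72.1 FPKM of the lymphocyte genes, and PH Thy1 libraries held 1829 to 3529 FPKM of 7 endothelial genes against 1277 to 2262 FPKM of the fibroblast and mesothelial genes. NPD and Thy1 libraries held both duct and fibroblast or mesothelial markers: the summed level of 8 fibroblast and mesothelial genes was 4617 to 5083 FPKM in normal NPD and 2911 to 3334 FPKM in normal Thy1 libraries. Normal KC libraries also held 7 of 7 sinusoidal endothelial genes, at 3554 to 4889 FPKM in sum. Normal cBEC library 1 stood apart from the other 3, with 486 FPKM of the fibroblast and mesothelial genes against 87.9 to 121 FPKM. Normal cBEC library 4 held 864 FPKM of hepatocyte markers, against 9.24 to 14.3 FPKM in the other 3. The library titled as PH cBEC 1 carries a treatment tag of normal in the labels and was used as titled.

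In normal liver 8 of 9 tested members differed among the 10 populations (limma moderated F test on log2(FPKM + 1), adjusted p below 0.05 over all genes), where 93.3% of all 16139 genes tested did so. After PH the count was again 8 of 9, where 90.1% of 15509 genes passed. Egf did not pass in either set (adjusted p = 0.40 and 0.72), and Areg was too low to be tested. Those counts are near the share of all genes.

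**Figure D1:**
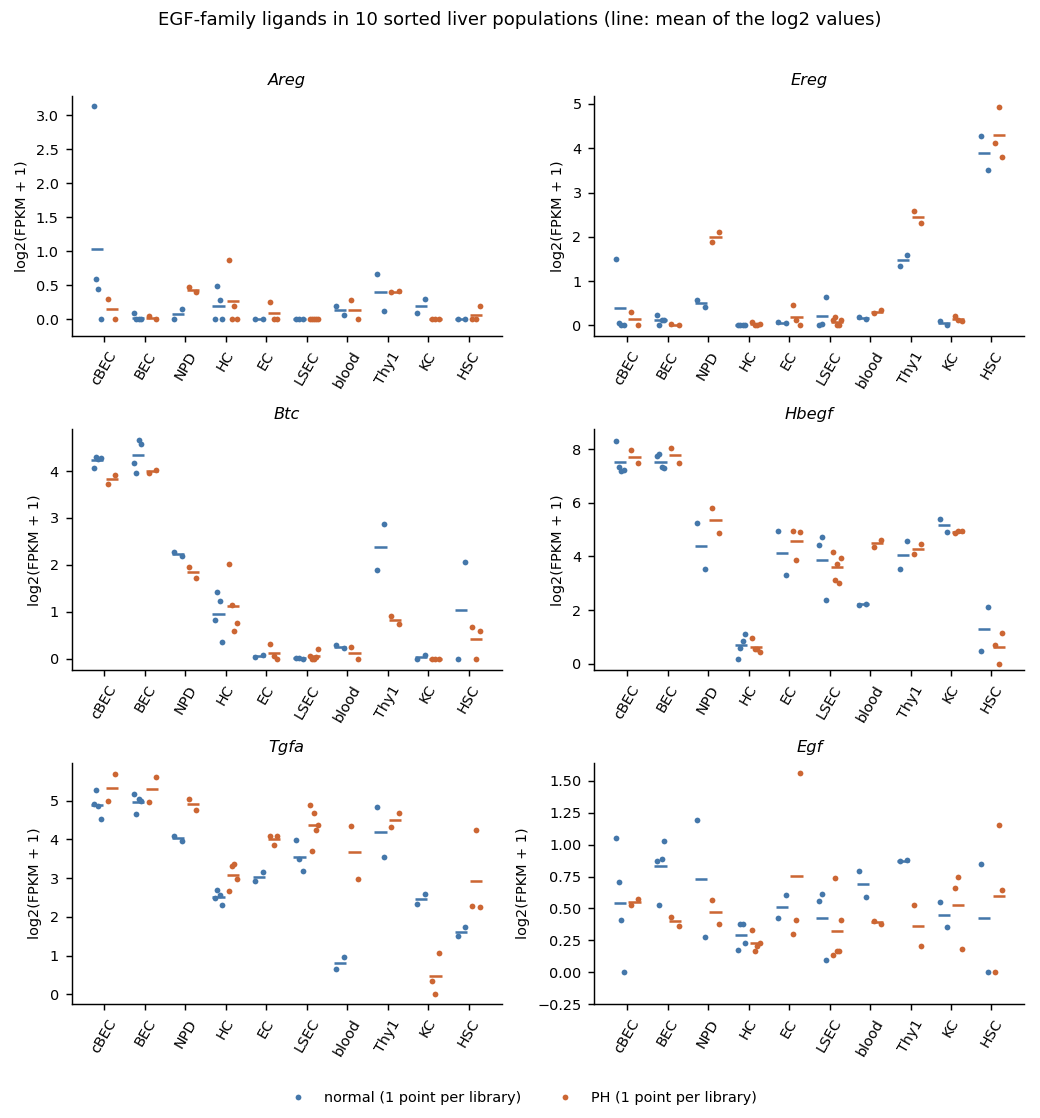
Levels of the 6 ligands in every library, as log2(FPKM + 1) on the vertical axis, by sorted population on the horizontal axis; each point is 1 library (normal in blue, PH in orange) and each line the mean of a group. Btc and Hbegf were highest in the cBEC and BEC libraries and Ereg in the HSC libraries. Tgfa had its highest group means in cBEC and BEC, with values that overlapped those of NPD and Thy1 libraries. Areg and Egf stayed below 2 FPKM except Areg in normal cBEC library 1 (7.78 FPKM).

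Hbegf, heparin-binding EGF-like growth factor, was the most abundant ligand of the bile duct sorts. In normal cBEC the 4 libraries held 321, 160, 145 and 148 FPKM, and in normal BEC 214, 224, 161 and 156 FPKM. The PH cBEC libraries held 254 and 177 FPKM and the PH BEC libraries 266 and 180 FPKM. Every cBEC and BEC library lay above every library of the other 8 populations, whose highest value was 54.8 FPKM in an NPD library after PH. Normal cBEC exceeded KC, the next population, by 2.35 (adjusted p = 0.00288, limma; 46.5% of genes passed that contrast), and PH cBEC exceeded NPD by 2.39 (adjusted p = 9.79e-05; 27.6% passed). In hepatocytes Hbegf was low, at 0.13 to 1.17 FPKM in normal and 0.36 to 0.92 FPKM in PH libraries. The immediate early genes Fosb, Jun, Junb, Egr2, Egr3, Ier2, Atf3, Dusp1, Nr4a1 and Btg2, which respond to cell handling and to growth signals, were also high in the duct sorts. Their sum was 4180 to 9660 FPKM in normal cBEC and BEC libraries and 336 to 596 FPKM in normal hepatocytes. It was also 3555 to 5186 FPKM in normal NPD, 4073 to 4888 FPKM in normal Thy1 and 2431 to 2850 FPKM in normal KC. Hbegf there was 10.4 to 37.6, 10.5 to 23.1 and 29.5 to 41.3 FPKM. Normal EC, LSEC, blood and HSC libraries held sums of 385 to 2407 FPKM. The part of these genes in the Hbegf level was not tested.

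Tgfa, transforming growth factor alpha, was the ligand found most widely. It reached at least 1 FPKM in 51 of 55 libraries and at least 10 FPKM in 32. Normal BEC held 30.5 ± 4.65 FPKM (SD, n = 4) and normal cBEC 29.1 ± 6.41 FPKM (SD, n = 4). Thy1, NPD and LSEC libraries followed, at means of 19.2, 15.3 and 11.0 FPKM, and the Thy1 values of 27.6 and 10.7 FPKM overlapped those of cBEC. Hepatocytes, with Hbegf near 1 FPKM or less, held 4.58, 5.41, 4.90 and 3.95 FPKM of Tgfa, so that Tgfa made up 70.6% of their summed ligand FPKM. Normal blood libraries were the lowest, at 0.563 and 0.946 FPKM. After PH, cBEC held 30.8 and 50.2 FPKM and differed from 5 of the 9 other populations (limma, adjusted p below 0.05). PH BEC, at 30.4 and 47.5 FPKM, overlapped PH NPD, at 31.95 and 26.2 FPKM (difference 0.38, limma adjusted p = 0.70).

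Btc, betacellulin, was highest in the duct sorts. Its 8 normal cBEC and BEC values ran from 14.5 to 24.2 FPKM and its 4 PH values from 12.2 to 15.3 FPKM. Thy1 and NPD libraries came next in normal liver, at 2.71 and 6.31 FPKM and at 3.86 and 3.56 FPKM, and normal cBEC exceeded Thy1 by 1.85 (adjusted p = 0.000754; 30.8% of genes passed). In PH, cBEC exceeded NPD by 1.99 (adjusted p = 1.94e-05). Hepatocytes held 0.28 to 1.66 FPKM in normal and 0.51 to 3.02 FPKM in PH libraries, and the EC, LSEC and KC libraries 0.235 FPKM at most. In normal HSC 1 library held 3.16 FPKM and the other was listed at 0.

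Ereg, epiregulin, had another source. Normal HSC libraries held 18.4 and 10.4 FPKM and PH HSC libraries 16.4, 29.7 and 12.9 FPKM, all above each of the 50 libraries of other populations. Thy1 libraries came next, with 1.55 and 2.004 FPKM in normal liver and 4.99 and 3.98 FPKM after PH. HSC exceeded Thy1 by 2.42 in normal liver (adjusted p = 1.25e-05; 32.8% of genes passed) and by 1.84 after PH (adjusted p = 6.60e-07; 33.3% passed). Hepatocytes were listed at 0 in all 4 normal libraries and reached 0.06 FPKM at most after PH. Ereg was the top ligand of stellate cells, with 70.0% of their summed ligand FPKM in normal and 68.3% in PH libraries.

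Areg, amphiregulin, and Egf, the family's founding member, were hardly present. Areg was listed at 0 in 31 of 55 libraries, and 1 library, normal cBEC 1, reached 1 FPKM or more, at 7.78 FPKM; the other 3 normal cBEC libraries held 0.506, 0.358 and 0 FPKM. Egf ranged from 0 to 1.95 FPKM with a median of 0.341 FPKM, and 5 of 55 libraries reached 1 FPKM. No population stood out for Egf beyond the spread between libraries. In these sorts neither gene is therefore measured well enough to compare treatments.

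**Figure D2:**
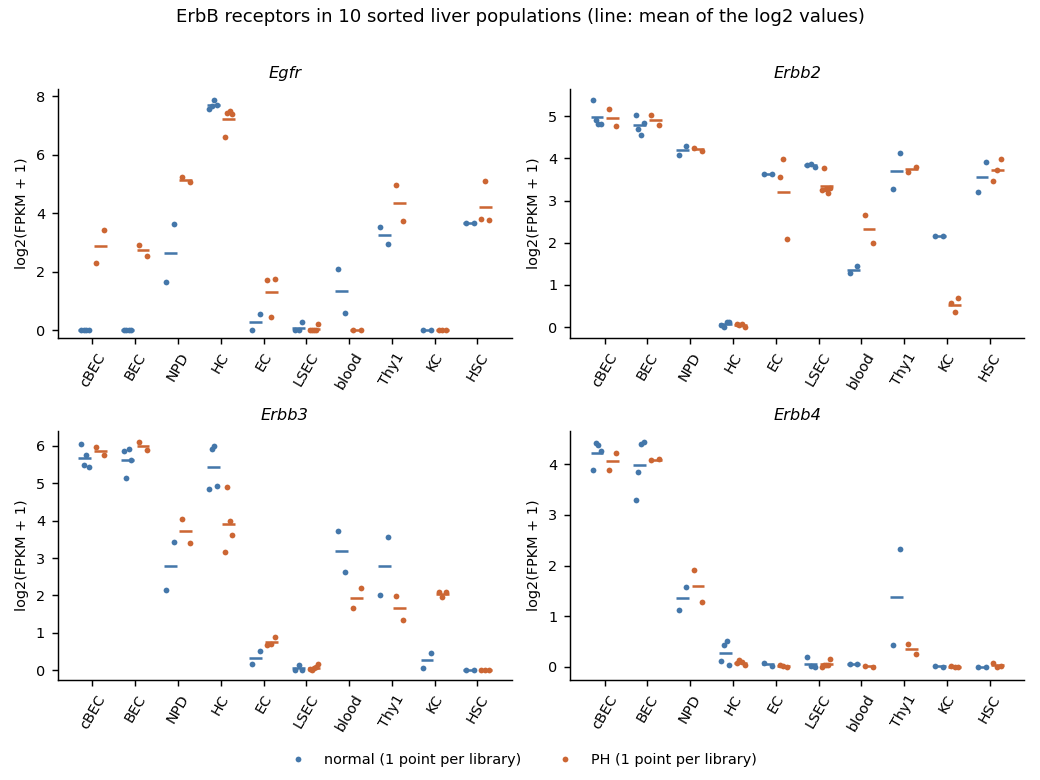
Levels of the 4 receptors in every library, as log2(FPKM + 1) on the vertical axis, by sorted population on the horizontal axis; each point is 1 library (normal in blue, PH in orange) and each line the mean of a group. Egfr was highest in hepatocytes, and Erbb2, Erbb3 and Erbb4 in cBEC and BEC. On the NM_007912 row drawn here, the PH cBEC and BEC libraries show Egfr where the normal ones are listed at 0.

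Egfr, the receptor for all 6 ligands, was a hepatocyte transcript in these sorts. Levels are those of the NM_007912 row, the shorter of 2 Egfr rows, which ends at 16787661 on chromosome 11. The other row, NM_207655, ends at 16813910. What part of the receptor each row encodes was not examined, so these need not be levels of the whole receptor. The 4 normal hepatocyte libraries held 187, 202, 231 and 207 FPKM and the 4 PH libraries 95.8, 170, 181 and 167 FPKM, above every other library of the series. HSC followed in normal liver, at 11.7 and 11.6 FPKM, a difference of 4.04 (adjusted p = 7.87e-09; 60.7% of genes passed). NPD followed after PH, at 36.7 and 32.3 FPKM, 2.08 below hepatocytes (adjusted p = 9.55e-05; 67.9% passed). Kupffer cells were listed at 0 in all 5 libraries, and the 8 LSEC libraries did not exceed 0.211 FPKM. The NM_207655 row was also highest in hepatocytes, at means of 153 FPKM in normal and 95.5 FPKM in PH libraries.

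Erbb2, the partner receptor without a ligand, gave nearly the reverse picture. Hepatocytes were the lowest population, at 0.01 to 0.08 FPKM in normal and 0 to 0.05 FPKM in PH libraries, close to the step of 0.01 FPKM in which their values are listed. Normal cBEC held 40.6, 29.1, 27.2 and 27.3 FPKM and normal BEC 31.8, 25.0, 22.6 and 27.5 FPKM. NPD, LSEC, Thy1, EC and HSC libraries formed a middle group, with normal means of 11.2 to 17.3 FPKM, in which no neighbours in the order differed. Normal KC libraries were lower, at 3.48 and 3.45 FPKM.

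Erbb3 was high in 2 lineages. Normal hepatocytes held 27.8, 59.2, 63.0 and 29.7 FPKM, which overlapped normal cBEC (42.6 to 65.7 FPKM) and BEC (34.4 to 59.9 FPKM), and exceeded blood, the next population, by 2.25 (adjusted p = 6.89e-05; 68.5% of genes passed). After PH the order separated: cBEC, at 61.3 and 53.6 FPKM, exceeded hepatocytes, at 7.89, 29.1, 15.04 and 11.2 FPKM, by 1.95 (adjusted p = 9.17e-06; 65.1% passed). Normal blood libraries held 12.3 and 5.19 FPKM. Erbb3 was listed at 0 in all 5 HSC libraries and did not exceed 0.117 FPKM in the 8 LSEC libraries.

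Erbb4 was the receptor most limited to ducts. Normal cBEC libraries held 13.7, 20.3, 19.7 and 18.1 FPKM, normal BEC 8.82, 13.4, 20.1 and 20.7 FPKM, and the 4 PH libraries of these sorts 13.8 to 17.7 FPKM. Normal Thy1 libraries, at 0.343 and 4.03 FPKM, were next and lay 2.62 to 2.85 below BEC and cBEC on the log2 scale. The sum of the duct markers ran from 863.5 to 5157 FPKM in the normal Thy1 libraries, and its part in their Erbb4 level was not tested. Hepatocytes reached 0.43 FPKM at most. Normal cBEC and BEC did not differ in any of the 9 tested members (adjusted p from 0.78 to 1; 0.459% of genes passed), nor did PH cBEC and BEC (adjusted p of 1 for each; 0.0903% passed), which does not show that they are alike.

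Btc, which binds Erbb4, followed it more closely than any other pair of members. Pearson's r between their 20 group means of log2(FPKM + 1) was 0.97, where the groups share populations and the duct sorts set the range, so this is a description. RefSeq promoter sequence of mouse build GRCm38.p6 was at hand for 7 of the 10 members; Ereg, Hbegf and Erbb3 had no entry. The 250 bases before the start of Btc (chr5:91402995-91403244, minus strand), Erbb4 (chr1:69108060-69108309, minus strand) and, for contrast, the hepatocyte-high Egfr (chr11:16751953-16752202, plus strand) are given 5′ to 3′ on the gene's strand, with motif matches in capitals.
Btc: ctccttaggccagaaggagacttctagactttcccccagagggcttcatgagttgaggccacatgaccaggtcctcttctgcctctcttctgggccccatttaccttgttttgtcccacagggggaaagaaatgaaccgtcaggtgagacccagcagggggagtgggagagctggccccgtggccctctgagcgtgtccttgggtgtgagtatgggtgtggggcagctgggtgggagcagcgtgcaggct
Erbb4: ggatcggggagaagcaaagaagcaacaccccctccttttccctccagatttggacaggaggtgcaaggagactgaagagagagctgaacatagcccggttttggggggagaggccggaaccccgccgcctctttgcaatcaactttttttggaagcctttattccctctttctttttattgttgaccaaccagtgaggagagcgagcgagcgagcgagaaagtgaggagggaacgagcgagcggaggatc
Egfr: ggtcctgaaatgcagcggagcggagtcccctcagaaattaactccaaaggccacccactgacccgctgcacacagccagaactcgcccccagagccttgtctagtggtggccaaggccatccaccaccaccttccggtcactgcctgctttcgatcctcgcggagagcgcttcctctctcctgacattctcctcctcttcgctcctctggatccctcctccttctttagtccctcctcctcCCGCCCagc
Both strands were searched for 4 short motifs: the GC box GGGCGG, the CCAAT box CCAAT, the TATA box TATAAA and the AP-1 site TGANTCA. Of 32851 mouse promoter windows of this length, 32.7%, 33.8%, 12.4% and 6.7% hold them in that order. Egfr held 1 GC box, read on the opposite strand, and none of the other 3; Btc and Erbb4 held none of the 4. GC content was 59.6% for Btc, 54.0% for Erbb4 and 60.8% for Egfr, against a median of 52.4% over all windows.

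The deposited table places the 3 ligand genes Ereg (NM_007950, chr5:91503642-91522675), Areg (NM_009704, chr5:91568624-91577458) and Btc (NM_007568, chr5:91786286-91832020) near each other on chromosome 5 of build mm9, Btc on the minus strand and the others on the plus strand. Their levels did not move together by group: Ereg was an HSC transcript and Btc a duct transcript. Tgfa (NM_031199) lies at chr6:86145220-86225737, Egf (NM_001310737) at chr3:129380494-129428004, Egfr (NM_007912) at chr11:16652205-16787661, Erbb2 (NM_001003817) at chr11:98273797-98299030, Erbb3 (NM_010153) at chr10:128006423-128026557 and Erbb4 (NM_010154) at chr1:68078760-69154633, and Hbegf (NM_010415) is on chromosome 18. Each row is a whole transcript, so values cover its exons together.

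**Figure D3:**
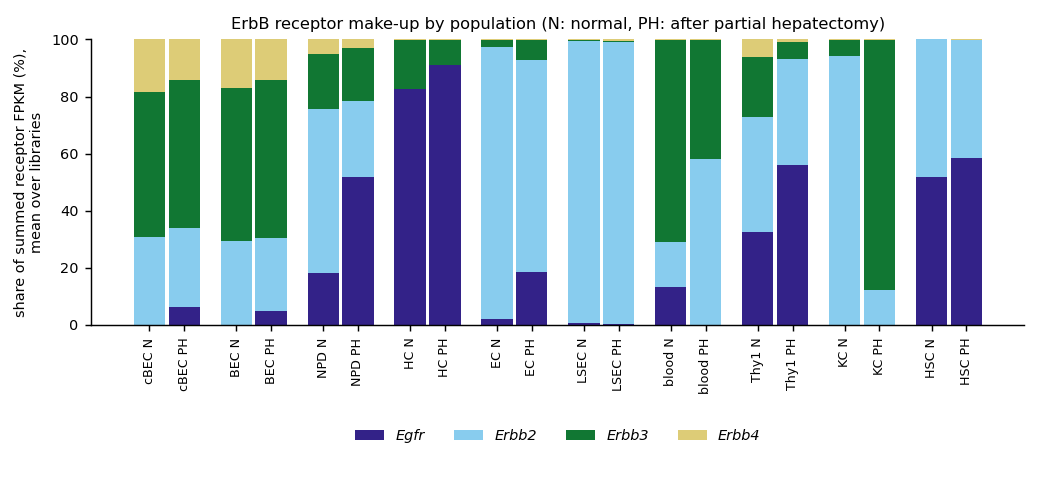
Share of each receptor in the summed FPKM of the 4 receptors (vertical axis, %, mean over the libraries of a group) in each population (horizontal axis; N, normal; PH, after partial hepatectomy). Egfr, on the NM_007912 row alone, made up 82.5% in normal and 90.9% in PH hepatocytes. Erbb2 made up 95.6% in normal EC and 98.8% in normal LSEC. The KC bars went from 94.2% Erbb2 to 87.6% Erbb3.

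The receptor make-up differed by lineage, with Egfr taken from the NM_007912 row alone. Hepatocytes held Egfr (82.5% ± 5.43 of summed receptor FPKM, SD, n = 4) with Erbb3 (17.4% ± 5.37). Normal cBEC held Erbb3 (50.8% ± 3.54, SD, n = 4), Erbb2 (30.8% ± 2.69) and Erbb4 (18.4% ± 4.69), with Egfr listed at 0 on this row. On the NM_207655 row normal cBEC library 4 held 4.86 FPKM. Normal EC and LSEC held almost only Erbb2. On the NM_007912 row HSC held Egfr and Erbb2 in like amounts (51.9% and 48.1% in normal, 58.5% and 41.4% in PH libraries). The NM_207655 row, left out of these shares, held means of 13.3 FPKM in normal and 21.1 FPKM in PH HSC. Egfr shares counted over both rows would be higher. In the ligands, Hbegf made up 78.2% of the summed FPKM in normal cBEC, 78.2% in normal BEC and 87.0% in normal KC.

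The symbols whose 20 group means followed each member most closely were also taken, over 13110 symbols and as a description. For Ereg they were Gdf6 (r = 0.97) and Kcne4 (0.97), for Btc Olfm2 (0.99) and Gal3st1 (0.99), and for Hbegf B4galt6 (0.97) and Setd3 (0.94). Tgfa was closest to Nectin2 (0.96) and Mical3 (0.93), Egfr to Slc19a2 (0.92) and Dgcr6 (0.90), and Erbb2 to Aff4 (0.98) and Igf1r (0.98), the receptor of insulin-like growth factor 1. Erbb3 was closest to Rassf7 (0.98) and to Tjp3 (0.98), a tight junction protein. Erbb4 was closest to Veph1 (0.998) and to Esrp1 (0.998), a splicing factor of epithelial cells. Areg was closest to Rnase1 (0.86) and to Clps (0.85), a cofactor of pancreatic lipase, with its values set by normal cBEC library 1.

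PH against normal was tested within each population. Of the 100 combinations of a member and a population, 53 passed the filter on low values and 9 passed the test (limma, adjusted p below 0.05 over all genes), 7 higher and 2 lower after PH. They fell in BEC, NPD, blood and KC. Egfr in BEC, Ereg in NPD, Tgfa in blood and Erbb3 in KC cleared the filter through PH libraries alone, and Erbb2 in KC through normal libraries alone. In each of these the other group lay below 1 FPKM throughout, so passing the filter already set the direction. The share of all genes that passed ran from 0.00747% in Thy1 cells to 64% in blood cells, so the total is not read as a result about the members. When all groups shared 1 fit, which pools the spread over the 10 populations and tests members that are low in a population, 17 passed; those gained among the tested 53 were Egfr in cBEC and NPD (adjusted p = 1.49e-05 and 0.000162), Erbb3 in HC and blood (0.000801 and 0.0188), Ereg and Btc in Thy1 (0.0269 and 0.00521) and Tgfa in HSC (0.0316). In that shared fit, with 9 members tested in each population, 205 of 16527 genes passed in EC and 6642 in blood cells, the lowest and highest counts by population. It called 515 genes in cBEC, 1930 in NPD, 1194 in HC, 1886 in Thy1 and 1960 in HSC. The separate fits called 9, 1974, 621, 1 and 1 genes there, so the gain is not read as a result about the members. In the separate fits Areg and Egf passed the filter in no population. In these bulk sorts, fewer cells of a type and less RNA per cell cannot be told apart.

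**Figure D4:**
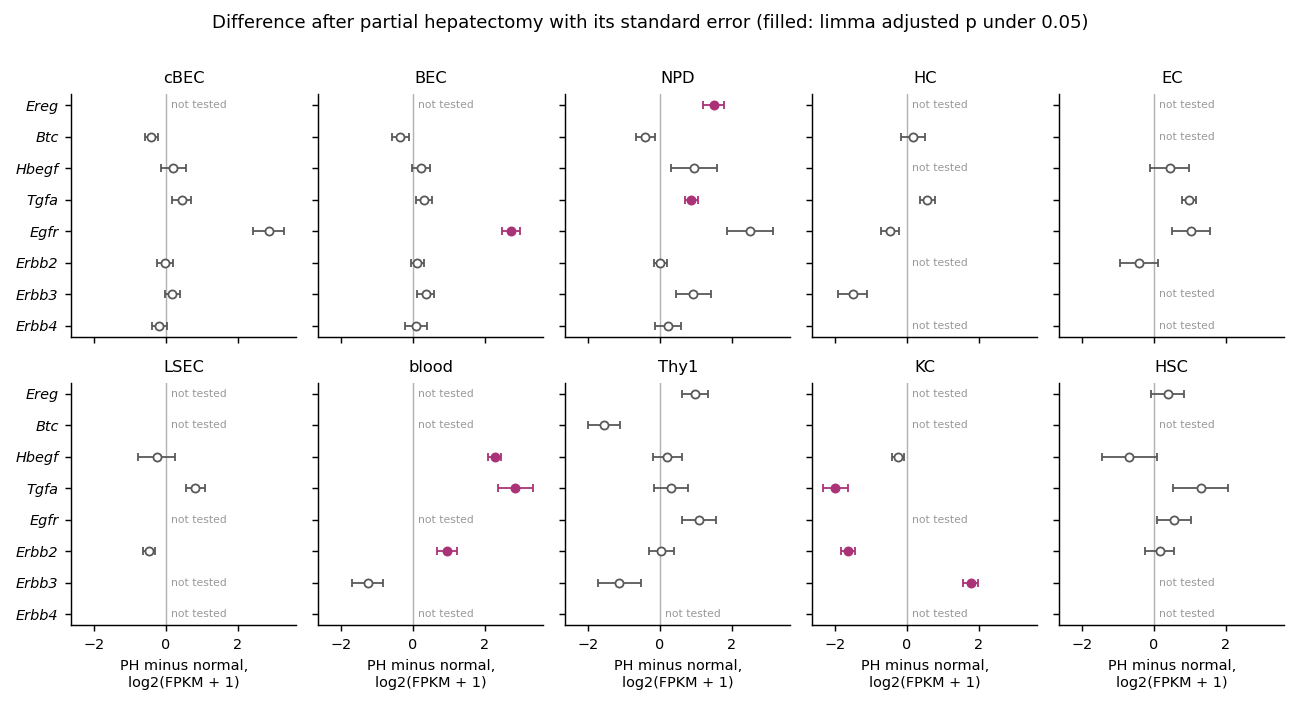
PH minus normal difference on the log2(FPKM + 1) scale (horizontal axis) with its standard error for 8 members (vertical axis) in each population; filled points passed the limma test at an adjusted p below 0.05, open points did not, and Areg and Egf were tested nowhere. The 9 filled points are Egfr in BEC, Ereg and Tgfa in NPD, Hbegf, Tgfa and Erbb2 in blood, and Tgfa, Erbb2 and Erbb3 in KC.

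In BEC, Egfr was the 1 of 7 tested members that passed, against 1.81% of all genes. Egfr cleared the filter on low values through its PH libraries alone, and normal values all listed at 0 add no spread to its SE. It was listed at 0 in all 4 normal libraries and measured 6.56 and 4.84 FPKM in the PH libraries, a difference of 2.73 (SE 0.25, adjusted p = 0.0024); without PH BEC library 1 the adjusted p was 0.056. In cBEC none of 7 passed, against 0.0681% of genes (9 by adjusted p and 1346 at an unadjusted p below 0.05). There too Egfr was listed at 0 in all 4 normal libraries and at 3.92 and 9.79 FPKM after PH (2.87, SE 0.43, adjusted p = 0.11). It again cleared the filter through its PH libraries alone. Without normal cBEC library 1 the adjusted p was 0.037, and Egfr did not pass with any other normal cBEC library left out. Without PH cBEC library 1, whose tag and title disagree, the Egfr difference in cBEC was 3.43 (adjusted p = 0.15).

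The longer Egfr row, NM_207655, named isoform 1, differs from NM_007912, isoform 2, at the 3′ end of the gene, and reads could be split between them. In normal BEC this row held 2.996 FPKM in library 3 and was listed at 0 in the other 3; in PH BEC it held 16.0 and 16.3 FPKM. In normal cBEC it held 4.86 FPKM in library 4 and 0 in the others, and in PH cBEC 14.0 and 19.2 FPKM. On this row too each PH duct library lay above each normal one. Of the 7 hepatocyte markers, 6 were listed at 0 in all 6 BEC libraries, where a 0 of genes so abundant in hepatocytes can itself be a failed estimate, and the sum was 8.19 to 11.8 FPKM in normal and 9.12 to 9.53 FPKM in PH libraries, all of it Hnf4a. The 7 endothelial genes summed to 67.3 to 209 FPKM in normal and 17.0 to 18.2 FPKM in PH BEC, and 8 Kupffer genes to 93.0 to 371 FPKM and 0.622 to 4.41 FPKM. Their part in the Egfr difference was not tested, nor was that of failed estimates at 0.

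**Figure D5:**
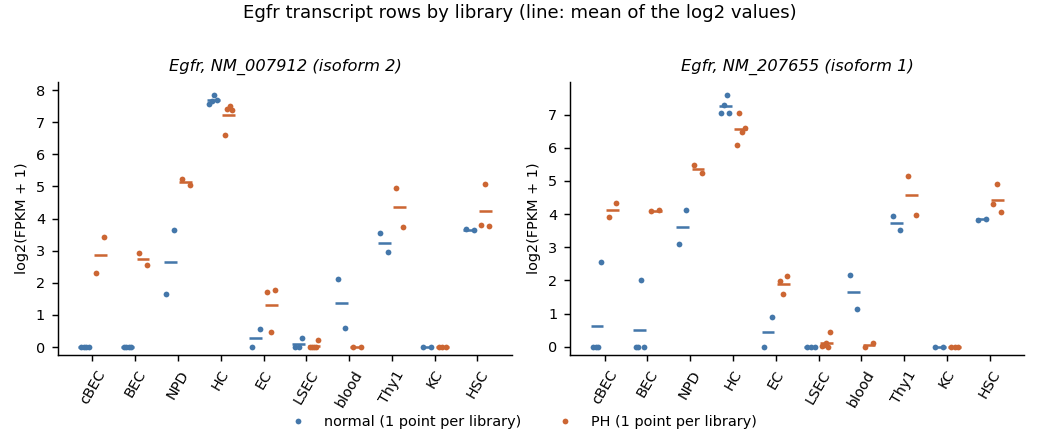
The 2 transcript rows of Egfr in every library, as log2(FPKM + 1) on the vertical axis, by population on the horizontal axis; each point is 1 library (normal in blue, PH in orange) and each line the mean of a group. In cBEC and BEC the PH libraries hold 3.92 to 9.79 FPKM on the NM_007912 row and 14.0 to 19.2 FPKM on the NM_207655 row, and the normal libraries lie below them on both.

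In NPD, Egfr did not pass the test: 2.12 and 11.4 FPKM in normal and 36.7 and 32.3 FPKM in PH libraries (2.51, SE 0.64, adjusted p = 0.059). On the NM_207655 row it passed (7.48 and 16.2 FPKM against 43.2 and 36.7 FPKM; 1.75, adjusted p = 0.036). With 1 normal NPD library left, assumed to vary like the PH ones, the difference on the NM_007912 row was 1.51 or 3.51, depending on the library left out.

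In NPD 2 of 8 tested members passed, where 15.2% of all genes did. Ereg rose from 0.485 and 0.335 FPKM to 2.69 and 3.29 FPKM (1.498, SE 0.29, adjusted p = 0.032). Tgfa rose from 16.0 and 14.6 FPKM to 31.95 and 26.2 FPKM (0.88, SE 0.18, adjusted p = 0.036). Groups did not overlap for either gene. Without either PH NPD library the PH arm is 1 library, assumed to vary like the normal ones, and limma called 0 of 13739 and 0 of 13869 genes; the differences were 1.61 and 1.39 for Ereg (adjusted p = 0.39 and 0.43) and 0.74 and 1.02 for Tgfa (0.41 and 0.32). Both calls were also lost without the filter on low values (0.058 and 0.072), and that of Tgfa when all groups shared 1 fit (0.24). Kupffer markers moved with the group, from 146 to 326 FPKM in normal to 10.3 to 14.4 FPKM in PH NPD libraries with 8 and 6 of 8 genes at 1 FPKM or more, and their part was not tested. Endothelial markers went from 177 to 190 FPKM to 55.9 to 62.0 FPKM, duct markers from 2605 to 3815 FPKM to 3969 to 4752 FPKM, stellate markers from 49.8 to 70.1 FPKM to 36.7 to 44.6 FPKM, and the fibroblast and mesothelial sum was 3536 to 4040 FPKM in PH NPD. Their part was not tested either.

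In hepatocytes none of 4 tested members passed, against 6.19% of genes. Erbb3 came nearest: 27.8, 59.2, 63.0 and 29.7 FPKM in normal and 7.89, 29.1, 15.04 and 11.2 FPKM in PH libraries, a difference of -1.51 (SE 0.41, adjusted p = 0.061), with 1 PH value above the lowest normal one. Without PH HC library 2, the overlapping one, the adjusted p was 0.029. Erbb3 did not pass with any other HC library left out. Egfr was lower in every PH library than in every normal one, at a mean of 153 against 207 FPKM (-0.47, SE 0.24, adjusted p = 0.29). Tgfa held 5.4, 8.86, 9.28 and 6.88 FPKM after PH against 3.95 to 5.41 FPKM (0.57, SE 0.21, adjusted p = 0.14). Without PH HC library 1 it passed (adjusted p = 0.049), but not with any other HC library left out.

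In the endothelial sorts no member passed: none of 4 in EC, against 0.0249% of genes (3 by adjusted p and 1297 at an unadjusted p below 0.05), and none of 3 in LSEC, against 8.46%. In EC, Egfr held 0 and 0.465 FPKM in normal and 2.29, 0.381 and 2.39 FPKM in PH libraries, which overlap (1.04, SE 0.53, adjusted p = 0.54). Tgfa in EC held 6.65 and 7.84 FPKM in normal and 16.1, 13.6 and 16.1 FPKM in PH libraries, with no overlap (0.98, SE 0.20, adjusted p = 0.20). In LSEC Tgfa held 14.8, 10.2 and 8.004 FPKM against 28.4, 11.9, 24.7, 17.98 and 19.7 FPKM (0.83, SE 0.28, adjusted p = 0.097). Erbb2 in LSEC was 12.9 to 13.5 FPKM in normal and 8.57, 12.7, 8.67, 8.11 and 8.80 FPKM in PH libraries (-0.47, SE 0.17, adjusted p = 0.12). Without PH LSEC library 2 both Tgfa and Erbb2 passed (adjusted p = 0.025 and 0.026). Neither passed with any other LSEC library left out.

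In blood cells 3 of 4 tested members passed, against 64% of all genes, so the share lies near the background. Hbegf rose from 3.56 and 3.68 FPKM to 19.5 and 23.5 FPKM (2.28, SE 0.18, adjusted p = 0.0011). Tgfa rose from 0.563 and 0.946 FPKM to 19.4 and 6.88 FPKM (2.86, SE 0.49, adjusted p = 0.0072), and Erbb2 from 1.44 and 1.72 FPKM to 5.29 and 2.97 FPKM (0.96, SE 0.29, adjusted p = 0.037). The median over all 12819 genes was -0.31. With 1 normal blood library left, assumed to vary like the PH ones, Tgfa did not pass at differences of 2.70 and 3.02 (adjusted p = 0.098 and 0.083), nor did Erbb2 at 0.88 and 1.03 (0.22 and 0.17). Erbb2 also lost its call without PH blood library 1 (0.62, adjusted p = 0.056) and without the filter (0.065). Erbb3 held 12.3 and 5.19 FPKM in normal and 2.16 and 3.57 FPKM in PH libraries (-1.25, SE 0.44, adjusted p = 0.057), and passed under upper-quartile scaling (adjusted p = 0.042). Egfr held 3.33 and 0.520 FPKM in normal blood and was listed at 0 in both PH libraries; its row was below the filter there and not tested, but it passed, lower after PH, on the NM_207655 row, on the sum of the rows and when all groups shared 1 fit.

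The marker make-up of the blood sort differed between normal and PH as well. The 8 Kupffer genes summed to 729 to 1116 FPKM in normal and 13230 to 22740 FPKM in PH libraries, and the 7 sinusoidal endothelial genes to 771 to 862 FPKM and 2779 to 6134 FPKM. In the other direction, the lymphocyte genes went from 1372 to 1532 FPKM to 30.1 to 72.1 FPKM, and the 5 natural killer genes from 2686 to 2963 FPKM to 32.3 to 69.8 FPKM. No gene of these 4 lists was at 0 in a whole group. Hbegf held 28.6 to 41.3 FPKM in the 5 KC libraries and Tgfa 11.9 to 28.4 FPKM in PH LSEC. The part of these cells in the 3 member changes was not tested.

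In KC 3 of 4 tested members passed, against 36.8% of genes. Tgfa fell from 4.02 and 5.02 FPKM to 0.259, 0 and 1.09 FPKM (-1.99, SE 0.35, adjusted p = 0.010), and did not pass with 1 normal KC library left, assumed to vary like the PH ones (-2.12 and -1.86, adjusted p = 0.074 and 0.087). Erbb2 fell from 3.48 and 3.45 FPKM to 0.480, 0.273 and 0.603 FPKM (-1.63, SE 0.20, adjusted p = 0.0034). Erbb3 rose from 0.0392 and 0.386 FPKM to 3.26, 2.90 and 3.26 FPKM (1.79, SE 0.21, adjusted p = 0.0031). Hbegf, the main KC ligand, held 41.3 and 29.5 FPKM in normal and 28.6, 29.6 and 29.8 FPKM in PH libraries, a difference that did not pass (adjusted p = 0.30).

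Endothelial markers were lower in the PH KC libraries, as Tgfa and Erbb2 were. The 7 endothelial genes summed to 1757 to 2231 FPKM in normal and 323 to 602 FPKM in PH libraries, and the 7 sinusoidal ones to 3554 to 4889 FPKM and 320 to 575 FPKM, with all 14 at 1 FPKM or more in both groups. Normal LSEC held 8.004 to 14.8 FPKM of Tgfa and 12.9 to 13.5 FPKM of Erbb2. The immediate early genes went from 2431 to 2850 FPKM to 293 to 491 FPKM, and Kupffer genes from 18370 to 20150 FPKM to 36530 to 37800 FPKM. The part of each in the KC changes was not tested.

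No member passed in Thy1 cells (0 of 7 tested, against 0.00747% of genes; 1 gene by adjusted p and 2417 at an unadjusted p below 0.05) or in HSC (0 of 5, against 0.00853%; 1 gene and 995). In Thy1 cells Btc held 2.71 and 6.31 FPKM in normal and 0.874 and 0.665 FPKM in PH libraries (-1.56, SE 0.45, adjusted p = 0.21), and Ereg 1.55 and 2.004 against 4.99 and 3.98 FPKM (0.98, SE 0.35, adjusted p = 0.25). Groups overlapped for neither gene. Duct markers summed to 863.5 to 5157 FPKM in normal and 859 to 1344 FPKM in PH Thy1 libraries, and their part in these differences was not tested. In HSC the Tgfa values of 1.85 and 2.32 FPKM in normal and 3.87, 17.97 and 3.78 FPKM in PH libraries did not overlap, with most of the difference in PH library 2 (1.31, SE 0.76, adjusted p = 0.69).

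Whether the PH difference itself varied between populations was tested across all 55 libraries. It did for 5 of 9 tested members (limma moderated F test of the interaction), where 47.8% of 16527 genes passed: Egfr (adjusted p = 9.70e-08), Tgfa (1.63e-05), Erbb3 (2.81e-05), Erbb2 (0.00179) and Ereg (0.0064). For Egfr the differences ran from 2.87 in cBEC and 2.73 in BEC to -0.47 in hepatocytes among the populations where the row was tested on its own, which leaves out blood. For Tgfa they ran from 2.86 in blood to -1.99 in KC, and for Erbb3 from 1.79 in KC to -1.51 in hepatocytes. Hbegf (adjusted p = 0.089), Btc (0.12), Erbb4 (0.41) and Egf (0.78) did not pass. With a pseudocount of 0.1 the count of members that passed was 4. The filter of this test did not look at each population, so populations in which a member was near 0 entered with differences near 0. Egfr, for example, was listed at 0 in all KC libraries.

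Around the family, 42 genes of the pathway were read in the same fits: 5 other ligands, 7 genes of ligand release, 9 adaptors, 12 feedback inhibitors and 9 genes induced through the kinase ERK. Of 353 combinations tested, 56 passed, 32 higher and 24 lower after PH, with a median difference of 0.11. Blood (22 of 35) and KC (19 of 32) held most of them, as they did of all genes, of which 64% and 36.8% passed there. In cBEC, BEC, EC, Thy1 and HSC no pathway gene passed, where 1.81% of all genes or fewer did. The total is therefore not read as a result about the pathway. Without normal blood library 1 the total was 36.

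In NPD 6 of 40 tested pathway genes passed, near the share of all genes (15.2%). The count is therefore not read as a result about the pathway. All 6 were higher after PH, where 9.65% of all genes passed as higher and 5.51% as lower. They included Adam9 (29.8 to 98.1 FPKM; 1.69, SE 0.15, adjusted p = 0.0092) and Adam12 (0.00524 to 3.57 FPKM; 2.17, SE 0.30, adjusted p = 0.017), both membrane proteases, and Myc (15.2 to 47.1 FPKM; 1.64, SE 0.33, adjusted p = 0.035). The ligand release list had 3 of 7 tested genes higher there, with a median of 1.13 against 0.090 over all genes. The part of the marker changes of the NPD sort in these differences was not tested. In LSEC 5 of 37 tested pathway genes passed, where 8.46% of all genes did. Adam9 (0.94) and Rhbdf2 (0.81), which helps mature the protease Adam17, rose. The cyclin Ccnd1 (-1.76) and the inhibitors Lrig3 (-1.19) and Spred2 (-1.17) fell.

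In hepatocytes 4 of 26 tested pathway genes passed, where 6.19% of all genes did. The cyclin Ccnd1 rose from a mean of 10.9 to 38.4 FPKM (1.74, SE 0.33, adjusted p = 0.015) and Myc from 1.51 to 5.998 FPKM (1.46, SE 0.33, adjusted p = 0.031). Nrg4, a ligand of Erbb4, rose from 5.92 to 13.1 FPKM (1.04, SE 0.21, adjusted p = 0.018), while Spry4, an inhibitor of receptor signalling, fell from 3.19 to 0.985 FPKM (-1.06, SE 0.20, adjusted p = 0.012). The 8 Kupffer genes summed to 0.18 to 13.2 FPKM in normal and 5.52 to 147 FPKM in PH hepatocytes, with 2 and 6 of 8 at 1 FPKM or more, and their part in these changes was not tested.

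In KC, where 36.8% of all genes passed, 9 of 10 tested genes of the feedback list fell, with a median of -1.56 against -0.040 over all genes. Spry4 went from 11.6 to 1.12 FPKM (-2.60), and in the ERK list Fos went from 906 to 76.7 FPKM (-3.61) and Egr1 from 351 to 37.5 FPKM (-3.21), beside the lower immediate early genes. Nrg4 rose (1.01, SE 0.27, adjusted p = 0.036). In blood, where 64% of all genes passed, the same feedback list had 7 genes higher and 2 lower, led by Spred1 (0.818 to 27.1 FPKM; 3.93, SE 0.23, adjusted p = 0.00082), beside the marker changes of that sort.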

How the data were processed

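RNA of sorted mouse liver populations was sequenced from libraries made by standard Illumina methods, per the labels' protocols. The authors deposited 1 table of FPKM per transcript row for 55 libraries; CASAVA 1.8.2, Bowtie 1.0.0 and the mm9 build are named in the submitters' processing notes, and how FPKM were estimated is not given in the sources used here. FPKM keep no depth, so fragment numbers, counting intervals and detection limits are not given. For each symbol the row of highest mean over all libraries was kept. Values were tested as log2(FPKM + 1) with limma 3.58.1 in R 4.3.3 (trend and robust variance, two-sided, Benjamini-Hochberg over all genes tested, adjusted p below 0.05). A gene was tested if it had at least 1 FPKM in as many libraries as the smaller group. PH was compared with normal in a separate fit per population; populations were compared by a moderated F test and 45 pairwise contrasts, adjusted over genes within each contrast; differences between responses were tested as interactions. The scripts were tested on simulated data. The members and the pathway and marker lists were chosen with earlier results of these data known. Named genes are all 10 members, the 2 symbols closest to each member by Pearson correlation of 20 group means (among symbols with at least 5 FPKM in some group, without predicted genes and small RNAs), and, of pathway genes that passed, at most the 3 largest changes in each direction per population. Sets were read by counts and medians only. Alternatives were a pseudocount of 0.1, no filter, quantile and upper-quartile scaling, mean or sum over rows, a replicate block, 1 fit of all groups, genes under 10 FPKM in hepatocytes, the other Egfr row (chosen after seeing the data) and leaving out each library. Scaling moved the median difference of all genes by over 0.1 in some populations: from -0.31 to -0.15 in blood, -0.11 to 0.05 in cBEC, -0.12 to 0.017 in BEC, -0.040 to 0.078 in KC, -0.060 to 0.044 in Thy1 and 0.090 to -0.014 in NPD under quantile scaling, and from -0.072 to 0.030 in HC and 0.022 to -0.081 in EC under upper-quartile scaling. Figures were drawn with matplotlib. Promoter sequences are RefSeq's for GRCm38.p6, and no coordinate was carried between builds.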

Additional observations from a re-analysis of the deposited data

Results flagged for a closer look

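In 46 groups of 4 or 5 libraries a highest or lowest value was checked for standing apart by Dixon's gap criterion, which chance meets in about 2.3 of them, and 11 values did. Normal cBEC library 1 gave 5: Areg at 7.78 FPKM (next 0.506), Ereg at 1.82 FPKM (next 0.0450), Hbegf at 320.9 FPKM (next 160), Erbb2 at 40.6 FPKM (next 29.1) and, below the others, Btc at 15.8 FPKM (next 18.2). This library also held the highest fibroblast and mesothelial sum of its group, 486 FPKM. Egfr in PH HC library 1 lay below the other 3, at 95.8 FPKM (next 167). PH LSEC library 5 held Btc at 0.148, Egfr at 0.166 and Erbb4 at 0.110 FPKM, each above the other 4, and PH LSEC library 2 held Erbb2 at 12.7 FPKM (next 8.80). Areg in normal BEC library 1 was 0.0651 FPKM with the other 3 at 0.

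The PH difference varied between the 10 populations by a limma F test of the interaction for Egfr (adjusted p = 9.70e-08), Tgfa (1.63e-05), Erbb3 (2.81e-05), Erbb2 (0.00179) and Ereg (0.00640). The report gives the differences by population.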

How the results depend on the processing

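Of the combinations of a member and a population, 9 passed; the count was 17 when all groups shared 1 fit, 6 without the filter and 7 to 11 with any 1 library left out. The pathway count of 56 became 37 among genes under 10 FPKM in hepatocytes, where fewer genes were tested, and 36 (without normal blood library 1) to 70 (without normal NPD library 2) with a library left out. The cause was not tested for the others. Counts of members differing among populations kept to 8 in each set with any library left out, and the interaction count ran from 5 to 7. With a pseudocount of 0.1 the interaction count was 4.

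Signs that changed belong to differences that did not pass. Erbb2 in cBEC was 0.086 under quantile and 0.014 under upper-quartile scaling (-0.019 as reported), and Erbb2 in NPD was -0.10 under quantile scaling (0.019). Leaving out 1 library moved differences across 0 as follows: Erbb2 from -0.22 to 0.18 in cBEC, -0.0872 to 0.13 in NPD, -0.80 to 0.16 in EC, -0.38 to 0.48 in Thy1 and -0.20 to 0.52 in HSC; Hbegf from -0.0426 to 0.49 in cBEC, -0.047 to 0.52 in BEC, -0.38 to 1.27 in EC, -0.99 to 0.18 in LSEC, -0.32 to 0.75 in Thy1 and -1.49 to 0.13 in HSC. The ranges were -0.14 to 0.24 for Erbb4 in BEC, -0.0786 to 0.55 for Erbb4 in NPD, -0.13 to 0.35 for Btc in HC and -0.33 to 0.95 for Tgfa in Thy1. Their cause was not tested.

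With replicate numbers as a block the member count was 11 and the pathway count 54; Hbegf in cBEC became -0.096 and Erbb2 in EC 0.16. Under the block Erbb2 in blood did not pass (adjusted p = 0.054), while Erbb3 in HC (0.032), Hbegf in NPD (0.034) and Egfr in NPD (0.039) did. Deviations of same-numbered libraries correlated from -0.65 to 0.50 in HC, where 1 of 4 libraries was closest to its own number, and from -0.23 to -0.0093 in LSEC (0 of 3). In cBEC, BEC, NPD, Thy1 and HSC, with 2 shared numbers each, the correlations were 0.0318 to 0.129 and 2 of 2 libraries were closest to their own number. In EC (-0.123 to 0.0344), blood (-0.0479) and KC (-0.158 to 0.132) it was 0 of 2. Where both groups hold 2 libraries, as in NPD, Thy1 and blood, deviations mirror each other, so only 0 of 2 or 2 of 2 can occur. The labels give no more than a number, so the libraries were not taken as paired. Depth is unknown, and many groups hold 2 libraries.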
